A study of Mus musculus with 108 samples.

Results

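The levels of 7 short non-coding RNAs that fold into defined structures were followed through single mouse oocytes: 6 made by RNA polymerase III (Rn7sk, Rmrp, Rpph1, Rny1, Rny3 and Vaultrc5) and the telomerase RNA Terc. Their rule is a list of gene symbols, and it was drawn up with earlier results of these data known. The count files held 55573 gene rows, of which 8 carried these 7 symbols, because Rmrp was listed under a pair of nested gene models.

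RNA polymerase III makes small RNAs that work as parts of RNA-protein particles. Rn7sk (7SK) holds the elongation factor P-TEFb inactive together with the Hexim and Larp7 proteins. Rmrp and Rpph1 are the RNA cores of RNase MRP and RNase P, which share most of their protein subunits and cut precursor ribosomal RNA and precursor tRNA. The Y RNAs Rny1 and Rny3 bind the Ro60 and La proteins, Vaultrc5 is a vault particle RNA, and Terc carries the template from which telomerase copies telomere repeats. Terc, unlike the others, is made by RNA polymerase II, and its precursor is trimmed at the 3′ end. None of the mature RNAs normally carries a long poly(A) tail, and the nuclear exosome, of which Exosc10 is a 3′ to 5′ exonuclease, trims or degrades many structured RNAs that have received a short one.

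The study set oocytes in which Exosc10 was knocked out, in the oocyte only (labelled cKO), against control oocytes at 3 stages: the germinal vesicle stage (GV), GV oocytes kept for 3 h outside the body in M2 medium (GV3h), and ovulated metaphase II oocytes (MII) collected from oviducts. Each of the 86 libraries came from 1 oocyte. In the polyA libraries RNA was captured from the lysed oocyte with oligo(dT) beads, reverse transcribed, amplified and made into Nextera libraries. They held 15 GV cKO oocytes from 2 females and 7 controls from 2, 11 GV3h cKO oocytes from 3 females and 8 controls from 3, and 15 MII cKO oocytes from 3 females and 8 controls from 3. The RiboMinus libraries were made with the Ovation Solo kit and random hexamer primers, with no selection for poly(A). They held 7 GV cKO oocytes from 2 females and 8 controls from 2, and 4 MII cKO oocytes from 2 females and 3 controls from 1 female. The Cre driver, the deleted part of Exosc10, the strain and the age of the 23 females are not given in the sources used here. Each female gave oocytes of 1 genotype at 1 stage in 1 library type, so the female is the replicate, and oocytes of the same female are not independent of each other. The RiboMinus MII controls came from a single female, V1145.

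All 7 genes are single-exon genes in the GENCODE M21 annotation of the mm10 assembly. Rn7sk (ENSMUSG00000065037, 331 nt) lies at chr9:78175303-78175633 on the minus strand. Rmrp (ENSMUSG00000115420, 281 nt) lies at chr4:43492783-43493063 on the minus strand, and 124 of its bases overlap an exon of Ccdc107 on the opposite strand. Rpph1 (ENSMUSG00000092837, 319 nt) lies at chr14:50807449-50807767 on the minus strand, and 233 of its bases overlap an exon of Ccnb1ip1 on the same strand. Rny1 (ENSMUSG00000065701, 112 nt) at chr6:47788069-47788180 on the minus strand and Rny3 (ENSMUSG00000064945, 102 nt) at chr6:47781624-47781725 on the plus strand are neighbours. Vaultrc5 (ENSMUSG00000065145, 143 nt) lies at chr18:36801866-36802008 on the plus strand, and Terc (ENSMUSG00000064796, 423 nt) at chr3:96414437-96414859 on the minus strand. Several of these RNAs have many near-identical pseudogene copies in the genome, so the counts depend on how the authors' counting treated reads that match more than 1 place. Whether a kit recovers RNAs this short in proportion to messenger RNAs was not tested.

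The sequences of Rmrp, Rny1 and Terc, the members on which most of the results turn, are printed here 5′ to 3′ as DNA letters from the GENCODE M21 transcripts, since oligo(dT) capture depends on runs of A. Capitals mark the longest run of A in each, or the first such run where several are equally long, as in Rny1. Rmrp and Rny1 are whole, and Terc is shown from base 1 to base 300 of 423.

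Rmrp: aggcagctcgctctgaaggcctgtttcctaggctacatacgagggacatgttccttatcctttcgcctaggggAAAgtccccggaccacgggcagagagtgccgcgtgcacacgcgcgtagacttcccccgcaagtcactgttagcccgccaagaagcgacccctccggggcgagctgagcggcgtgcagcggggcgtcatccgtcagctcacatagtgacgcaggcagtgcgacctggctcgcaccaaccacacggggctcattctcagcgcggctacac

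Rny1: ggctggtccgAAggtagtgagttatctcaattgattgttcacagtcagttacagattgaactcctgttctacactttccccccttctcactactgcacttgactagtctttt

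Terc: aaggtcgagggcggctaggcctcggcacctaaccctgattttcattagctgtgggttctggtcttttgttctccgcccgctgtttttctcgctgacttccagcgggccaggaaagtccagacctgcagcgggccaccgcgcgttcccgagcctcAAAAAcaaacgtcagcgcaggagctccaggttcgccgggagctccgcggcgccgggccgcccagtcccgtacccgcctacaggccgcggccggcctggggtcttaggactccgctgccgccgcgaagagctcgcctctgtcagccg

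The longest run of A was 5 bases in Terc, 3 in Rmrp and 2 in Rny1, and none of the 3 full sequences ended in A. Rny1 ended in 4 T, the usual stop signal of RNA polymerase III.

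Depth was 4638718 to 8735914 counts per polyA library and 12319658 to 62675760 per RiboMinus library, and the RiboMinus MII cKO libraries (20678209 to 62675760) were all deeper than their controls (16220993 to 20447150). Exosc10 counts were lower in cKO than in control oocytes in all 5 comparisons, by 5.34 to 7.49 on the log2 scale (edgeR quasi-likelihood test, adjusted p = 2.07e-06 to 0.00101). The RiboMinus GV call was lost without MII cKO oocyte 2 of V1166, which shares the fit (adjusted p = 0.0575), and the polyA GV call in a fit of only the groups compared (adjusted p = 0.0825). Reads of 10 oocyte marker genes summed to 7653.5 to 31863 counts per 1000000 counts of the library after TMM scaling (CPM) in the 86 libraries. The summed level of 14 cumulus and granulosa markers was 104 to 150 CPM in RiboMinus GV controls and 97.1 to 205 CPM in cKO, and 153 to 169 CPM in MII controls and 72.7 to 114 CPM in MII cKO. The MII ranges did not overlap. Amh, Foxl2, Hsd17b1, Lhcgr, Ptx3 and Tnfaip6 were at 0 in the MII controls, and Hsd17b1, Ptx3 and Tnfaip6 in MII cKO. Blood markers (5 genes) summed to at most 13.8 CPM. The part of depth and of these cells in the results was not tested. Of the 86 libraries, 3 correlated better with the other genotype than with their own across genes, leaving out Exosc10. They were the RiboMinus GV cKO oocytes 2 and 3 of female V1126 (mean r of 0.931 and 0.885 with their own group against 0.969 and 0.978 with the controls) and polyA GV3h cKO oocyte 1 of female V983 (0.932 against 0.934). Exosc10 stood at 8.28 and 4.19 CPM in the first pair, near the 0.779 to 4.21 CPM of the other 5 GV cKO oocytes and below the lowest control, at 94.0 CPM. The RiboMinus GV genotype differences of the 7 RNAs and the calls in the lists of partner genes are therefore given with and without that pair. The pair was picked for its likeness to controls, so leaving it out favours differences between genotypes. Calls made without it are not independent of that choice.

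In RiboMinus libraries all 7 RNAs were read in all 22 oocytes, and together they took 0.0237 ± 0.0114% of counts in GV controls (SD, n = 8 oocytes), 0.0324 ± 0.00973% in GV cKO (n = 7), 0.0438 ± 0.0168% in MII controls (n = 3) and 0.0620 ± 0.0318% in MII cKO (n = 4). Per kilobase of gene, the order in GV controls was Rn7sk (317 CPM per kb), Vaultrc5 (253), Rpph1 (160), Rny3 (155), Rny1 (150), Rmrp (56.9) and Terc (2.37). The coefficient of variation between oocytes was 0.41 to 0.66 for the first 5 of these RNAs. Rn7sk and Vaultrc5, and Rpph1, Rny3 and Rny1, differed by less than that spread, while Vaultrc5 stood above Rpph1 by more than the SD of Rpph1 and less than its own. In GV cKO oocytes the RNase MRP RNA, next to last in controls, stood first with 367 CPM per kb, ahead of Rpph1 (265), Vaultrc5 (246), Rn7sk (175), Rny3 (122) and Rny1 (119). That first place rested on female V1131, with a mean of 143 CPM of Rmrp. In V1126 Rmrp held 50.25 CPM, below Rpph1 (72.7 CPM) and Rn7sk (79.7 CPM). The coefficient of variation of Rmrp over GV cKO oocytes was 0.60. MII controls kept Rn7sk (653), Vaultrc5 (644) and Rpph1 (363) on top, with Rmrp at 25.5 and Terc at 8.57 CPM per kb. In MII cKO the 6 polymerase III RNAs lay between 392 (Rny1) and 531 (Rmrp) CPM per kb, and Terc lay at 7.06.

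**Figure D1:**
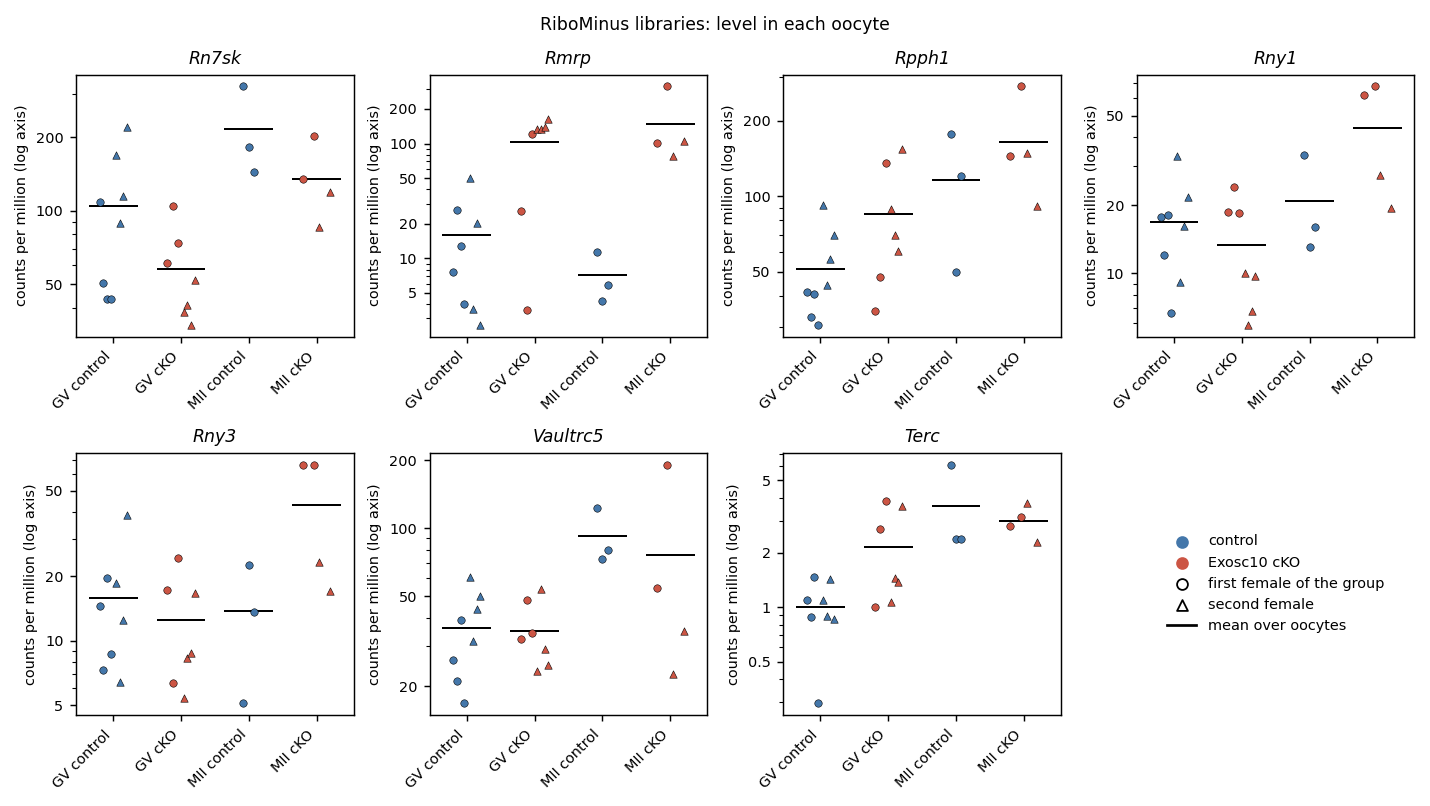
Level of each RNA in each RiboMinus oocyte, in CPM on a log axis, for GV and MII oocytes; blue marks controls, red marks cKO, circles and triangles mark the first and the second female of a group, and bars mark means over oocytes. Rmrp is at 77.5 to 314 CPM in the 4 MII cKO oocytes and at 4.24 to 11.4 CPM in the 3 controls, and 5 of the 7 GV cKO oocytes lie above all 8 GV controls.

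Rmrp, the RNA of RNase MRP, showed the largest difference between genotypes among the 7 in RiboMinus libraries. At MII the 3 controls held 11.4, 4.24 and 5.86 CPM. The cKO oocytes held 101 and 314 CPM in female V1166 and 77.5 and 105 CPM in female V1167, so that the lowest cKO oocyte lay several-fold above the highest control. On counts summed per female, Rmrp was higher in MII cKO by 4.05 ± 0.64 on the log2 scale (SE; 16.5-fold; edgeR quasi-likelihood test, adjusted p = 0.0165). The control arm of this test is the summed count of 1 female, so the spread comes from the other groups of the fit, with V1145 assumed to vary like them, and genotype and female cannot be told apart at MII. The same holds for every RiboMinus MII comparison of genotypes given here. Rmrp was the only one of the 7 RNAs called at MII, where 7.3% of the 25425 genes tested were called. Its groups did not overlap, as was the case for 30.0% of genes at this stage. With each female or, for the only control female, each oocyte left out in turn, the adjusted p stayed between 0.0131 and 0.0400. A limma voom fit with the female as a random block gave 4.202 with an adjusted p of 0.0669, which ends the call.

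At GV the controls held 7.64, 26.3, 12.9 and 3.99 CPM of Rmrp in female V1132 and 50.2, 3.63, 20.5 and 2.65 CPM in female V1133. The cKO oocytes of female V1131 held 133, 134, 140 and 165 CPM, and those of female V1126 held 26.0, 3.57 and 121 CPM. The 2 low values belonged to the pair of libraries that resembled controls. The difference was 2.58 ± 0.44 on the log2 scale and was not called (adjusted p = 0.0803), at a stage where 0.0315% of genes (8 of 25425) were called and 3727 had an unadjusted p under 0.05. With oocytes as units it was 2.68 ± 0.68 (adjusted p = 0.00722, where 37.6% of genes were called). DESeq2 and a fit with no filter on low counts also called it (adjusted p = 2.57e-06 and 2.15e-14), while other scalings, a stricter filter, limma voom and a fit of only the groups compared did not (adjusted p up to 0.124). With each female or oocyte left out in turn the difference ran from 1.85 without V1131 to 3.06 without V1126, with adjusted p from 0.0140 (without V1126, the 1 call among the 13) to 0.685. Without the 2 libraries, an alternative chosen after the values were seen, the 5 remaining cKO oocytes held 121 to 165 CPM (mean 139 ± 16.1, SD). The difference was then 2.93 ± 0.32 with an adjusted p of 0.00205, and 10.4% of all genes (2650 of 25531) were called. Since the pair was picked for its likeness to controls, leaving it out favours such calls, and this one adds no independent support. The difference at MII exceeded that at GV by 1.47 on the log2 scale, and this interaction was not called (adjusted p = 0.378).

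Rpph1, the RNase P RNA and the closest relative of Rmrp in function, differed less between genotypes. GV controls held 41.2, 32.8, 40.8 and 30.7 CPM in V1132 and 92.6, 44.1, 56.2 and 70.0 CPM in V1133, and cKO oocytes held 34.8, 47.8 and 135 CPM in V1126 and 89.1, 69.8, 60.5 and 154 CPM in V1131. The groups overlapped over most of their range. The log2 difference was 0.77 ± 0.32 (adjusted p = 0.321), or 1.11 (adjusted p = 0.0589) without the 2 libraries. With oocytes as units it was not called with them (adjusted p = 0.0696) and called without them (0.97, adjusted p = 0.00454, where 54.4% of genes were called). At MII, with 49.99 to 177 CPM in controls and 91.3 to 274 CPM in cKO, it was 0.29 (adjusted p = 0.646). Across the 22 RiboMinus oocytes Rmrp and Rpph1 correlated with r = 0.58 (log2 of CPM plus 1), a description over oocytes that share females, genotypes and depth.

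Rmrp and Rpph1 share genomic sequence with protein-coding genes, and reads from the overlaps cannot be told apart here. For Rmrp and Ccdc107, on opposite strands, whether reads were assigned by strand is not stated. Rpph1 and Ccnb1ip1 lie on the same strand, so strand would not separate their reads. The shorter Rmrp model lies wholly within the longer and still holds counts, so the counting could assign 1 read to more than 1 gene row. Ccdc107, whose exon covers part of Rmrp on the other strand, stood at 11.6 CPM in RiboMinus GV controls and 41.2 CPM in cKO (log2 difference 1.76, adjusted p = 0.126, or 2.07 with adjusted p = 0.00590 without the 2 libraries of V1126), and at 15.3 and 54.0 CPM at MII (1.496, adjusted p = 0.103). Its count lay below that of Rmrp in 14 of 22 oocytes, with a ratio of 0.298 to 3.11. In polyA libraries, where Rmrp had 0 to 5 reads per oocyte, Ccdc107 stood at 38.2 CPM in GV controls and 46.9 CPM in GV cKO, at 36.2 and 51.7 CPM at GV3h (adjusted p = 0.598 and 0.195), and at 1.38 and 2.97 CPM at MII (1.20, adjusted p = 0.0147). The MII call was lost without V842 (adjusted p = 0.0589), and also with limma voom, with oocytes as units and in a fit of only the groups compared (adjusted p = 0.0658, 0.0657 and 0.150). Ccnb1ip1, which overlaps Rpph1, tracked it at close to equal counts in every RiboMinus oocyte, with a ratio of 0.820 to 1.39 and a median of 1.01. In polyA libraries Ccnb1ip1 was not near equal to Rpph1: it stood at 7.86 CPM in GV controls and 18.6 CPM in cKO (log2 difference 1.13, adjusted p = 0.239), at 7.40 CPM in GV3h controls and 39.4 CPM in cKO (log2 difference 2.33, adjusted p = 0.00265) and at 7.38 and 61.6 CPM at MII (3.60, adjusted p = 0.000259), while Rpph1 had at most 7 reads in any oocyte. Ccdc107 and Ccnb1ip1 were singled out after the files had been read.

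**Figure D2:**
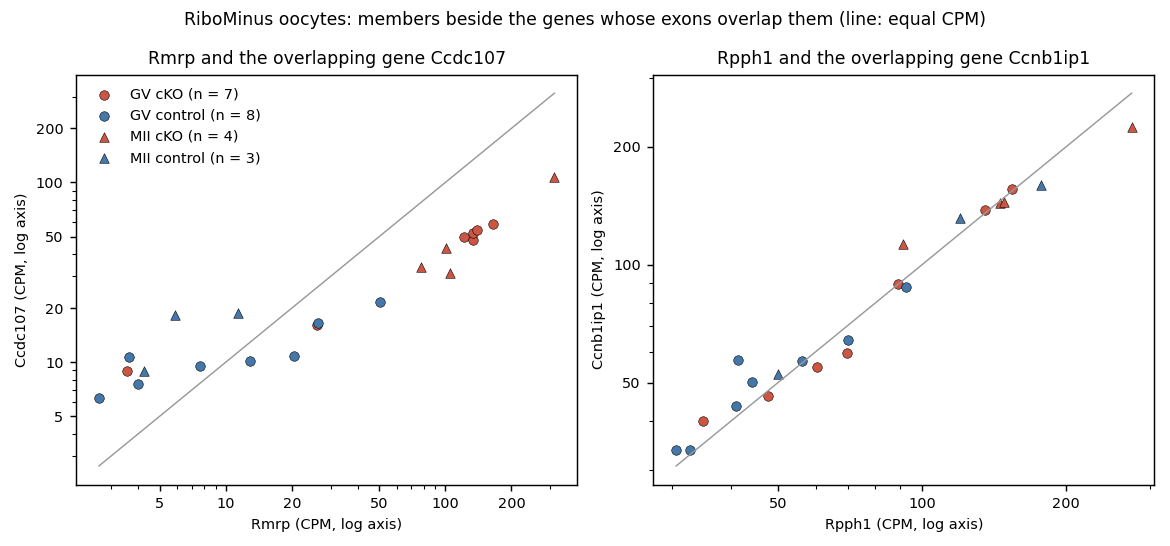
CPM of Ccdc107 against Rmrp (left) and of Ccnb1ip1 against Rpph1 (right) in the 22 RiboMinus oocytes, on log axes; the line marks equal CPM, colours mark genotype, circles GV and triangles MII. Ccdc107 falls below the line in 14 oocytes where Rmrp is high, and Ccnb1ip1 stays near the line throughout, at a median ratio of 1.01.

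The 7SK RNA Rn7sk was not called between genotypes at either stage, and its log2 differences were negative at both. GV controls held 108, 50.5, 43.6 and 43.5 CPM in V1132 and 169, 89.3, 115 and 220 CPM in V1133. GV cKO oocytes held 61.2, 104 and 73.6 CPM in V1126 and 38.5, 41.3, 34.2 and 52.2 CPM in V1131. The groups overlapped, and the low female V1132 lay nearer to the cKO oocytes than to V1133. The log2 differences were -0.81 at GV (adjusted p = 0.450) and -0.80 at MII (adjusted p = 0.359). MII controls held 322, 182 and 144 CPM and MII cKO oocytes 135, 201, 85.6 and 120 CPM. Without the 2 libraries of V1126 the GV difference was -0.90 (adjusted p = 0.231), and with oocytes as units it was then called (-1.15, adjusted p = 0.0118, where 54.4% of genes were called). Without the control female V1133 it was 0.0027.

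Vaultrc5, the vault RNA, differed by -0.08 on the log2 scale at GV (adjusted p = 0.977), with 16.9 to 60.8 CPM in controls and 23.4 to 53.8 CPM in cKO, and by -0.17 (adjusted p = 0.881) without the 2 libraries. At MII controls held 123, 72.8 and 80.1 CPM. The cKO oocytes held 54.3 and 191 CPM in V1166 and 22.5 and 35.2 CPM in V1167, and so both the lowest and the highest value of that stage. The log2 difference was -0.71 (adjusted p = 0.437).

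The Y RNAs lie close together on chromosome 6 and both bind Ro60. Their levels correlated with r = 0.65 over the 22 RiboMinus oocytes, below the 0.71 of Rny1 with Rn7sk and near the 0.61 of Rny1 with Vaultrc5. At GV Rny1 held 6.65 to 33.0 CPM in controls and 5.91 to 24.0 CPM in cKO (log2 difference -0.30, adjusted p = 0.853), and Rny3 held 6.43 to 38.6 CPM and 5.43 to 24.3 CPM (-0.23, adjusted p = 0.892). Without the 2 libraries of V1126 the values were -0.42 (adjusted p = 0.680) and 0.07 (adjusted p = 0.979). At MII Rny1 held 33.4, 13.1 and 16.03 CPM in controls. The cKO oocytes held 61.6 and 67.3 CPM in V1166 and 27.1 and 19.5 CPM in V1167, so that V1166 lay above every control and V1167 within their range. Rny3 held 5.13, 22.5 and 13.7 CPM in MII controls, 66.2 and 66.3 CPM in V1166 and 23.3 and 17.1 CPM in V1167. The log2 differences at MII were 1.01 for Rny1 (adjusted p = 0.369) and 1.59 ± 0.70 for Rny3 (adjusted p = 0.183). Leaving out V1167 gave 2.21 for Rny3 with an adjusted p of 0.0338, and leaving out V1166 gave 0.51 with an adjusted p of 0.526. For Rny1 the same gave 1.55 (adjusted p = 0.132) and 0.14 (adjusted p = 0.935). With oocytes as units Rny3 had 1.71 with an adjusted p of 0.0443, where 23.7% of genes were called. A fit with no filter on low counts gave 1.63 and called it too, a setting that called 9.44% of genes on average over the genotype comparisons.

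Terc was the rarest of the 7. The GV controls gave 13, 15, 24 and 4 reads in V1132 and 17, 13, 20 and 12 in V1133, or 0.296 to 1.47 CPM. The GV cKO oocytes gave 14, 43 and 94 reads in V1126 and 16, 27, 26 and 75 in V1131, or 0.999 to 3.86 CPM. Means were 1.00 ± 0.37 CPM (SD, n = 8) and 2.15 ± 1.21 CPM (n = 7), and the groups overlapped. The log2 difference was 1.19 ± 0.54 (adjusted p = 0.351), and with oocytes as units 1.095 (adjusted p = 0.0390, where 37.6% of genes were called). Without the 2 libraries of V1126 it was 1.46 (adjusted p = 0.150), and with oocytes as units 1.16 (adjusted p = 0.0325, where 54.4% of genes were called). At MII, with 2.39 to 6.10 CPM in controls and 2.29 to 3.73 CPM in cKO, it was -0.33 (adjusted p = 0.762), and 0.25 without oocyte 2 of the control female V1145.

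**Figure D3:**
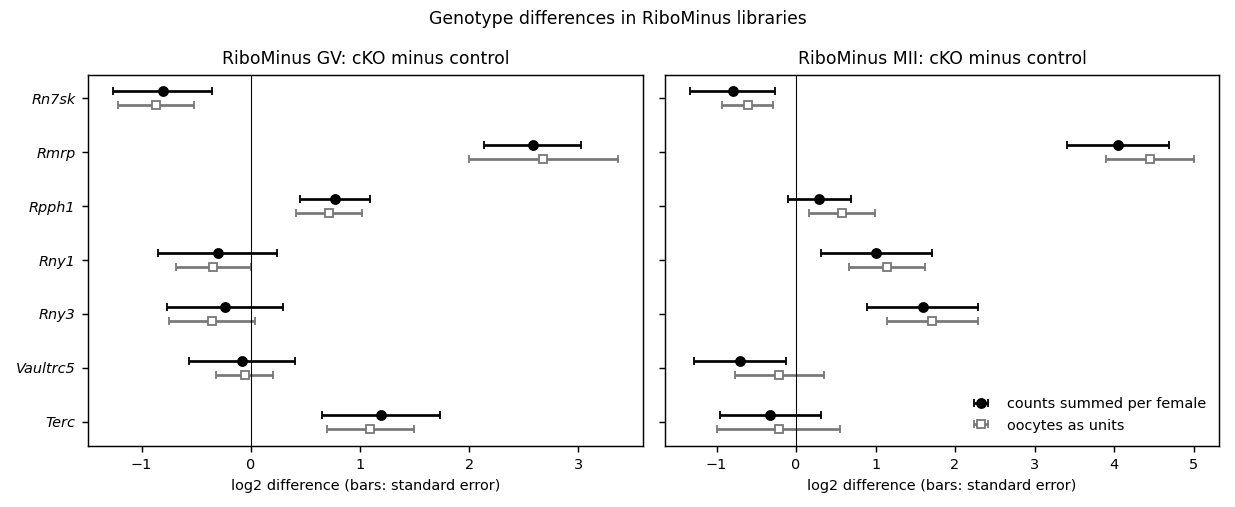
Log2 difference between cKO and control in RiboMinus libraries at GV (left) and MII (right) for the 7 RNAs, with standard errors; filled circles are counts summed per female, open squares are oocytes as units. Rmrp lies at 2.58 and 4.05 with counts summed per female, and the other 6 RNAs lie between -0.81 and 1.59.

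Between GV and MII, no RiboMinus difference of the 7 RNAs was called on counts summed per female, where 0.00787% of genes were called in controls and 2.32% in cKO. At an unadjusted p under 0.05 there were 3 of 7 in controls and 2 of 7 in cKO, against 15.1% and 20.3% of all genes. Without the 2 libraries of V1126, which share the fit, none of the 7 was called either (adjusted p from 0.153 in controls and 0.0835 in cKO), where 0.701% and 6.29% of genes were called. With oocytes as units 4 of 7 were called higher at MII in controls (30.9% of genes called in either direction) and 3 of 7 in cKO (16.1%). Vaultrc5 and Terc were the 2 RNAs whose control oocytes did not overlap between stages, as was the case for 18.9% of genes. Vaultrc5 held 16.9 to 60.8 CPM at GV and 72.8 to 123 CPM at MII in controls (log2 difference 1.32, adjusted p = 0.323; with oocytes as units 1.34, adjusted p = 0.00105). Terc differed between the control stages by 1.80 (adjusted p = 0.233; with oocytes as units adjusted p = 0.0235). Rn7sk differed by 1.02 in controls and 1.03 in cKO (adjusted p = 0.410 and 0.247). Rny1 and Rny3 differed by 1.59 and 1.62 in cKO (adjusted p = 0.161 and 0.147; with oocytes as units 0.0170 and 0.0189). Stage and female cannot be told apart in controls, since the MII controls came from 1 female.

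In polyA libraries the 6 RNAs other than Rn7sk were close to absent from controls, and over all stages each gave more reads per library count in cKO oocytes. Over the 3 stages, 23 control oocytes from 8 females gave 22 reads in all for these 6 (0.151 CPM), and 41 cKO oocytes from 8 females gave 333 reads (1.12 CPM). At least 1 such read was found in 16 of 23 control and 39 of 41 cKO oocytes. Terc was read once in controls, in 1 of 23 oocytes, and 79 times in cKO, in 30 of 41 oocytes and all 8 females. Rny1 gave 5 reads in controls and 95 in cKO, Rpph1 5 and 68, Rmrp 3 and 46, Vaultrc5 5 and 26, and Rny3 3 and 19. Rn7sk, the most abundant, gave 305 reads in controls and 1046 in cKO. Intervals and floors for these reads cover counting error only, since the reads carry no molecular identifiers and can be copies of the same molecule. Only Rn7sk, Rny1 and Terc passed the filter on low counts, and the other 4 were not tested. Rny1 and Terc passed it through the cKO females alone, since no control female had more than 3 reads of either, so that a gene of this kind reaches the test only where cKO is high.

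Reads of Rny1 at GV3h came from cKO oocytes alone. It gave 57 reads in the 11 cKO oocytes: 4, 8, 1 and 2 in female V946, 6, 5 and 4 in V983 and 8, 7, 8 and 4 in V993. The 8 controls gave none. Against a floor of 3 counts over the control group, Rny1 was at least 10.1-fold higher in cKO. It was the 1 call between genotypes among the 3 RNAs tested in polyA libraries (edgeR quasi-likelihood test, adjusted p = 0.00801, where 25.2% of the 19242 genes tested were called). Since Rny1 passed the filter through cKO females, this call is not independent of the filter. With no filter on low counts the adjusted p was 0.00630, where 13.6% of genes were called. Every cKO oocyte lay above every control, as was the case for 8.76% of genes. With oocytes as units Rny1 did not pass the filter and was not tested. At GV, where 7.38% of genes were called, cKO oocytes gave 35 reads, 7 in V857 and 28 in V888, and controls gave 5. The ratio of reads per library count was 2.98 (95% interval for counting error 1.16 to 9.74), and the test did not call the difference (log2 difference 1.22, adjusted p = 0.583). At MII, where 18.9% of genes were called, 3 reads came from cKO oocytes and none from controls.

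Reads of Rny1 in cKO oocytes thus differed between stages as well, with 35 at GV and 3 at MII from 15 oocytes each. All 3 MII reads came from female V897. In reads per library count, the ratio of MII to GV in cKO was 0.0736 (interval 0.0145 to 0.234). The difference between MII and GV in cKO was -3.17 ± 1.15 on the log2 scale (adjusted p = 0.0412, with 44.7% of genes called). Of the 3 RNAs tested in polyA libraries, it was the only stage difference called; between GV and MII 42.5% of genes were called in controls, and between GV and GV3h none (425 in controls and 373 in cKO at an unadjusted p under 0.05). The difference between genotypes did not itself differ by stage for any of the 3 at an adjusted p under 0.05, where 1.94% of genes were called between MII and GV and none between GV3h and GV (307 at an unadjusted p under 0.05). For Rny1 between MII and GV in cKO, the call was lost with any of 9 of the 16 females left out (adjusted p up to 0.185), and also with no filter on low counts (adjusted p = 0.117) and with DESeq2 (adjusted p = 0.143). The log2 difference ran from -5.74 to -2.60 with 1 female left out. Rny1 passed the filter through cKO females at GV or GV3h, since no MII female had more than 3 reads, so this stage call is not independent of the filter. In RiboMinus libraries of cKO oocytes Rny1 stood at 13.4 CPM at GV and 43.9 CPM at MII, the opposite order, and that difference was not called (adjusted p = 0.161). Female means were 20.4 and 8.14 CPM at GV (V1126 and V1131) and 64.5 and 23.3 CPM at MII (V1166 and V1167).

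Terc gave no read in the 7 GV controls and 24 in 10 of 15 GV cKO oocytes, 4 in female V857 and 20 in V888. In reads per library count this was at least 3.41-fold higher (adjusted p = 0.116). At GV3h it gave 1 read in 8 controls and 35 in the 11 cKO oocytes, 14 in V946, 5 in V983 and 16 in V993 (ratio 18.6, interval 3.13 to 756; adjusted p = 0.0658). At MII it gave none in 8 controls and 20 in the 15 cKO oocytes, 1 in V841, 3 in V842 and 16 in V897, at least 3.44-fold higher (adjusted p = 0.0548). None of the 3 was called. With library totals as the scaling, the adjusted p values were 0.0499 at GV3h and 0.0485 at MII, where 5008 and 3841 of 19242 genes were called.

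Rn7sk was read in all 64 polyA oocytes, with log2 differences of 0.33 at GV (adjusted p = 0.756), 0.41 at GV3h (0.510) and 0.42 at MII (0.505). Controls gave 4 to 23 reads at GV, 7 to 17 at GV3h and 2 to 29 at MII, and cKO oocytes 6 to 38, 11 to 43 and 10 to 103, so that the groups overlapped at each stage. For Rpph1 the reads were 0 in controls and 25 in cKO at GV (at least 3.55-fold higher per library count), 2 and 28 at GV3h (ratio 7.45, interval 1.88 to 64.5), and 3 and 15 at MII (2.58, interval 0.730 to 13.9). For Rmrp they were 2 and 24 at GV (5.11, interval 1.27 to 44.6), 1 and 20 at GV3h (10.6, interval 1.70 to 441), and 0 and 2 at MII. Rny3 gave 0 and 8 reads at GV, 1 and 7 at GV3h (3.72, interval 0.478 to 168), and 2 and 4 at MII (1.03, interval 0.148 to 11.4). Vaultrc5 gave 0 and 6 at GV, 1 and 9 at GV3h (4.79, interval 0.663 to 210), and 4 and 11 at MII (1.42, interval 0.420 to 6.11), where 4 of 8 control and 7 of 15 cKO oocytes had a read. Each of these 4 intervals includes equal levels.

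**Figure D4:**
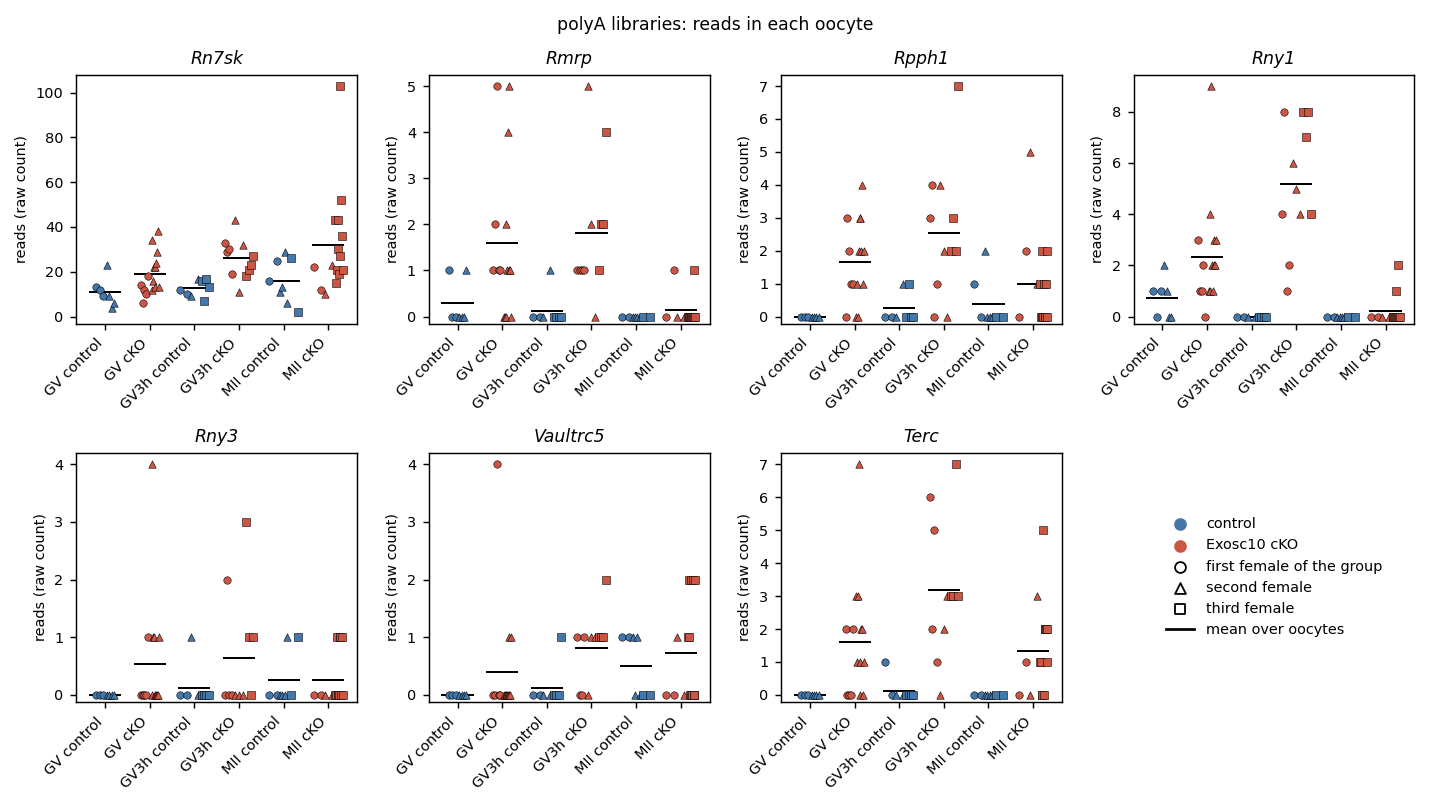
Reads of each RNA in each polyA oocyte, as raw counts on linear axes, at GV, GV3h and MII; blue marks controls, red marks cKO, symbols mark the females of a group, and bars mark means over oocytes. Terc is at 0 in 22 of 23 control oocytes and Rny1 is at 0 in all 8 GV3h controls, where the cKO oocytes have 1 to 8 reads.

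Levels in the polyA libraries were set beside those in RiboMinus libraries of the same stage and genotype, as mean CPM over females. The median of all genes with at least 1 CPM in RiboMinus was 90.6% in GV controls, 94.6% in GV cKO, 64.8% in MII controls and 70.2% in MII cKO. Each of the 7 RNAs was far lower, at 8.12% or less. Rn7sk stood at 1.65% in GV controls and 3.63% in GV cKO, and at 1.27% and 2.67% at MII. Rny1 stood at 0.657% and 1.92% at GV, and was listed at 0 in MII controls and 0.0295% in MII cKO. Rmrp, whose RiboMinus level differed most between genotypes, stood at 0.282% and 0.233% at GV, and at 0 and 0.0240% at MII. Rpph1 stood at 0 and 0.263% at GV and at 0.0434% and 0.147% at MII, and Vaultrc5 at 0 and 0.191% and at 0.0882% and 0.0915%. Rny3 stood at 0 and 0.433% at GV and at 0.292% and 0.0402% at MII. Terc was listed at 0 in controls at both stages and stood at 8.12% in GV cKO and 6.17% in MII cKO, the highest of the 7.

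**Figure D5:**
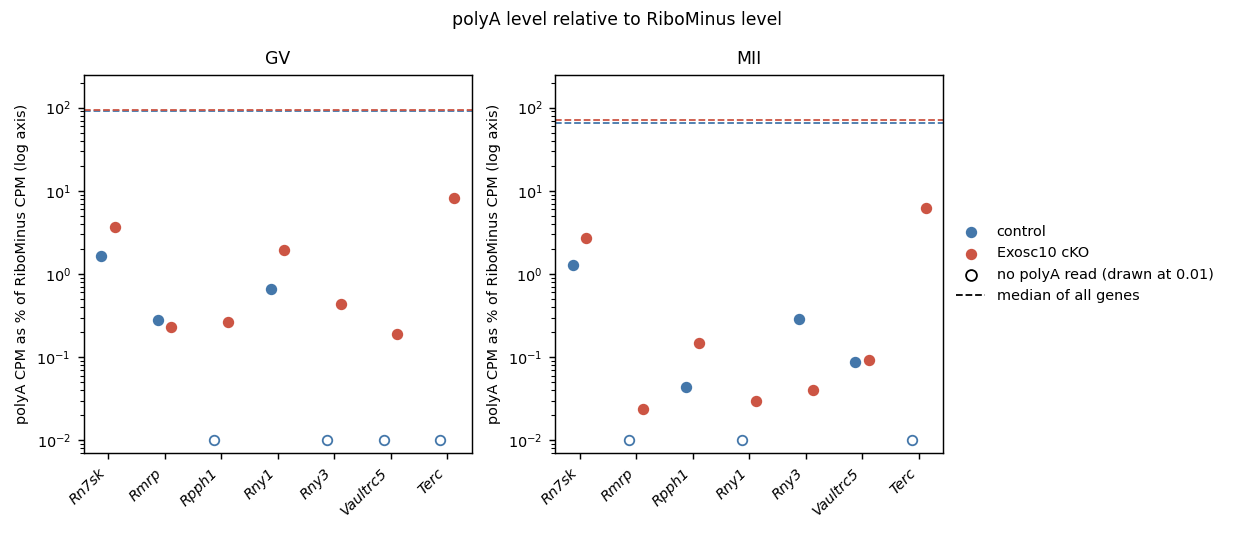
PolyA level of each RNA as a percentage of its RiboMinus level, on a log axis, at GV and MII; filled circles are means over females, open circles at the bottom mark RNAs with no polyA read, and dashed lines mark the median of all genes. All 7 RNAs lie far below the medians of 64.8% to 94.6%, with Terc in cKO highest at 8.12% and 6.17%.

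Whether the genotype difference itself differed between the library types was tested in 1 fit over all 23 females. None of the 7 RNAs was called at GV (0.00404% of 24777 genes called) or at MII (9.43%), and 2 and 1 of the 7 had an unadjusted p under 0.05, against 2.24% and 24.3% of all genes. Terc came nearest, at MII, with an adjusted p of 0.0536. No fold is given for it, since its polyA controls were all at 0. With oocytes as units it had an adjusted p of 0.0319, where 20.6% of genes were called.

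For each RNA with a mean of at least 50 counts, the genes whose RiboMinus level over the 22 oocytes was most like its own were found by Pearson correlation of log2 of CPM plus 1 among 12289 genes. These oocytes share females, genotypes, stages and depth, so the values are descriptions. For Rmrp they were Ccdc107 (r = 0.95), Ppp2r3a (0.94) and Rc3h2 (0.93), and for Rpph1 they were Ccnb1ip1 (0.98), Eef1b2 (0.85) and Pdpn (0.85), each led by its overlapping gene. For Rn7sk they were Gm26035 (0.94), Morc1 (0.93) and Gm24146 (0.90). For Vaultrc5 they were Mir1291 (0.88), Gm22270 (0.86) and Gm25395 (0.85). The Y RNAs had looser matches, with Dclre1c, Ypel5 and Gm24146 (0.81, 0.81 and 0.80) for Rny1 and Kcmf1, Rassf4 and Cfap206 (0.76, 0.75 and 0.75) for Rny3. Terc, with a mean of 44.8 counts, fell below the minimum. Among the 7, Rn7sk was most like Vaultrc5 (r = 0.74) and Rny1 (0.71) and least like Rmrp (-0.29).

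The genes that encode protein partners of these RNAs were taken from lists. "Rose" and "fell" below mean called in cKO against control on counts summed per female, and the counts for each list stand against 7.38% of all genes called in polyA GV, 25.2% in polyA GV3h, 18.9% in polyA MII, 0.0315% in RiboMinus GV and 7.3% in RiboMinus MII. In RiboMinus GV only 8 genes were called in all. Without the 2 libraries of V1126 the RiboMinus shares were 10.4% at GV and 11.6% at MII. Of 7 genes of the 7SK particle and P-TEFb, 1 rose and none fell in polyA GV, 2 rose and 2 fell in polyA GV3h, 1 rose in polyA MII, none was called in RiboMinus GV, and 2 rose and 1 fell in RiboMinus MII. In RiboMinus GV 2 rose (Cdk9 and Hexim1) and 1 fell (Hexim2) without the 2 libraries, and in RiboMinus MII 2 rose and 1 fell. Cdk9, the kinase of P-TEFb, rose in polyA GV3h from 3.01 CPM in controls to 18.7 CPM in cKO (log2 difference 2.50, adjusted p = 0.000711), and from 1.85 to 31.0 CPM in RiboMinus MII (3.76, adjusted p = 0.0266), while in polyA MII it stood at 7.18 and 7.66 CPM (0.08, adjusted p = 0.918). Hexim1, which inhibits P-TEFb when bound to 7SK, stood at 0 in all 3 RiboMinus MII controls and at 2.35 CPM on average in cKO (adjusted p = 0.0156). Larp7, which protects the 3′ end of 7SK, fell in RiboMinus MII from 187 to 40.5 CPM (-2.30, adjusted p = 0.0351). It was not called in RiboMinus GV (-0.72, adjusted p = 0.480), nor in polyA MII, where it stood at 124 and 102 CPM (-0.32, adjusted p = 0.116). The RiboMinus MII calls of Cdk9 and Larp7 were lost without the GV control female V1132 or V1133, among other libraries (adjusted p up to 0.0604 and 0.0728).

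Of 11 genes for proteins of RNase P and RNase MRP, none rose and 2 fell in RiboMinus MII, with a median log2 difference of -1.27 against 0.25 for all genes. The medians were -0.05, -0.00 and -0.26 in polyA GV, GV3h and MII (0.08, 0.07 and 0.12 for all genes) and -0.35 in RiboMinus GV (0.04 for all genes), with 0, 2, 2 and 0 calls. With the 2 libraries of V1126 left out, 1 fell in RiboMinus GV (Pop1) and 3 fell in RiboMinus MII (Pop1, Rpp30 and Rpp38). In RiboMinus MII Pop1, a large subunit of both enzymes, fell from 89.5 to 27.7 CPM (-1.90, adjusted p = 0.0180) and Rpp30 from 48.6 to 12.4 CPM (-2.12, adjusted p = 0.0286), in the same oocytes in which Rmrp was higher. Both calls were lost without the GV control female V1132 or V1133, that of Pop1 also without MII cKO oocyte 1 of V1166, and that of Rpp30 also under scaling by library totals (adjusted p up to 0.0599 and 0.0722). Pop1 also fell in polyA GV3h (80.9 to 32.3 CPM; -1.44, adjusted p = 0.000273) and polyA MII (51.1 to 18.5 CPM; -1.60, adjusted p = 0.000185). Pop7 fell in polyA MII (23.1 to 7.69 CPM; -1.63, adjusted p = 0.000350). These 3 polyA calls held with each female left out in turn. Rpp30 went the other way in polyA GV3h, where it rose from 57.8 to 109 CPM (0.87, adjusted p = 0.0299), a call lost without V946, V993, V951 or V982 (adjusted p up to 0.156).

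Of 5 Ro, La and vault proteins, none was called in polyA GV, polyA GV3h or RiboMinus GV, 1 rose in polyA MII and 1 fell in RiboMinus MII. Neither call held with each female left out in turn. None was called in RiboMinus GV and 2 fell in RiboMinus MII (Parp4 and Ssb) without the 2 libraries of V1126. Of 7 telomerase proteins, 1 fell in polyA GV, 3 rose and 2 fell in polyA GV3h, 1 fell in polyA MII, and 1 rose in RiboMinus MII. When the 2 libraries of V1126 were left out, 2 fell in RiboMinus GV (Dkc1 and Tert), and 1 rose and 1 fell in RiboMinus MII (Gar1 and Dkc1). Dkc1, or dyskerin, which binds and stabilises Terc, fell in polyA GV3h from 165 to 73.6 CPM (-1.20, adjusted p = 0.000405). It also fell in polyA GV (184 to 98.0 CPM; -1.06, adjusted p = 0.0138) and polyA MII (-0.58, adjusted p = 0.0399), but the GV call was lost without V857, V856 or V889 (adjusted p up to 0.0941) and the MII call without any of 10 of the 16 females (adjusted p up to 0.140). Wrap53, which guides telomerase to Cajal bodies, rose in polyA GV3h from 0.568 to 5.04 CPM (2.87, adjusted p = 0.0114), a call lost without V951 or V995 (adjusted p up to 0.0580). Naf1, an assembly factor of box H/ACA particles, rose there from 4.36 to 10.7 CPM (1.17, adjusted p = 0.0214), a call lost without any of 5 females (adjusted p up to 0.0794). Gar1, a core protein of those particles, rose in RiboMinus MII from 15.8 to 50.98 CPM (1.61, adjusted p = 0.0351), a call lost without V1132, V1133 or MII cKO oocyte 1 of V1166 (adjusted p up to 0.0990).

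Of 29 genes for RNA polymerase III and its factors, 3 rose and 1 fell in polyA GV, 5 rose and 2 fell in polyA GV3h, 4 rose and 2 fell in polyA MII, none was called in RiboMinus GV, and 1 rose and 2 fell in RiboMinus MII. The RiboMinus calls without the 2 libraries of V1126 were 3 higher and 1 lower at GV and 2 higher and 2 lower at MII. The 7 calls at polyA GV3h and 6 at polyA MII are near the share of all genes. Maf1, a repressor of RNA polymerase III, rose in polyA GV3h from 5.15 to 41.8 CPM (2.95, adjusted p = 0.000251). In polyA MII it stood at 6.40 and 6.01 CPM (0.05, adjusted p = 0.959). In RiboMinus MII it stood at 0 in all 3 controls and at 3.00 CPM on average in cKO (adjusted p = 0.0217). Snapc2, of the complex that starts transcription at 7SK-type promoters, rose in polyA GV3h from 3.41 to 33.4 CPM (3.24, adjusted p = 0.00125). Of 16 genes of tailing enzymes, the exosome and its cofactors, a list that holds Exosc10 itself, 1 rose and 1 fell in polyA GV, 2 rose and 4 fell in polyA GV3h, 3 rose and 1 fell in polyA MII, none rose and 1 fell in RiboMinus GV, and 1 rose and 1 fell in RiboMinus MII. Exosc10 is 1 of those that fell in each, and the only one outside polyA GV3h. Mtrex also fell in RiboMinus GV without the 2 libraries, and the RiboMinus MII counts were then 1 and 1. In polyA GV3h C1d, an Exosc10 cofactor, rose from 1.59 to 13.01 CPM (2.89, adjusted p = 0.00221), and Mtrex, the exosome helicase, fell from 123 to 60.3 CPM (-1.04, adjusted p = 0.00260). No other small structured RNA of a list of 13 was called between genotypes by edgeR on counts summed per female, of 9 tested in RiboMinus and 1 in polyA libraries.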

How the data were processed

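The deposited files held raw read counts per gene for each of 86 single-oocyte libraries. For the authors' processing, the submitters' processing notes name the mm10 build and cutadapt 2.5, FastQC 0.11.8, STAR 2.7.2a, SAMtools 1.9, HTSeq 0.9.1, R 3.5.1 and DESeq2 1.24.0; the strand setting is not given in the sources used here. Spike-in RNA was added per the labels' protocols, but no spike-in counts were used here, so every difference is relative to the other RNA of an oocyte. Files on ribosomal RNA (22) were not used here. Gene IDs were matched to GENCODE M21 (55480 of 55573).

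Counts were summed per female and tested with edgeR 4.0.16 (quasi-likelihood, TMM scaling, filterByExpr with a minimum count of 10), with all groups of a library type in 1 fit and all 23 females in the fit of library type by genotype. Tests were two-sided, with Benjamini-Hochberg adjustment over all genes tested, and a gene was called at an adjusted p under 0.05. The labels name females and oocytes but no cultures or sessions, so p-values measure the spread between females. CPM is counts per 1000000 counts over all gene rows, with each library total scaled by its TMM factor within its library type. Rates, ratios, intervals and floors of summed polyA reads use library totals with no such scaling. The procedure was tested on simulated counts, with differences placed only in genes with a mean of at least 50 counts. That test does not cover RNAs with few polyA reads, such as Rny1 and Terc, and its outcome is not used here. R 4.3.3, limma 3.58.1, DESeq2 1.42.0, Python 3.11.15, numpy 2.4.6, pandas 2.3.3, scipy 1.17.1 and matplotlib 3.10.9 were used.

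The shorter Rmrp model (271 nt) lies within the longer one, its count was equal to or below that of the longer in all 86 libraries, and the 2 were treated as 1 RNA, with the longer model's count. Alternatives were library totals or DESeq2 size factors as scaling, other filters, DESeq2, limma voom, oocytes as units, only the groups compared, and leaving out each female. Single oocytes were left out only for RiboMinus MII. Leaving out 2 oocytes of V1126 together was chosen after the data were seen, for their likeness to controls, so it favours differences between genotypes. The members and gene lists were chosen with earlier results of these data known. The genes named were the 7 members, Exosc10, up to 4 genes of each partner list called in at least 1 genotype comparison with the largest differences, and the 3 genes most like each member. Ccdc107 and Ccnb1ip1 were added after the files were read. Intervals are exact, at 95%, and floors are 3 counts.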

Additional observations from a re-analysis of the deposited data

Results flagged for a closer look

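In 2 of 24 combinations of an RNA and a group of 4 to 10 oocytes, with a mean of at least 10 counts, 1 oocyte lay apart from the rest by Dixon's criterion at 95%. Chance gives about 1 such case in 20. In RiboMinus MII cKO, Rmrp stood at 314 CPM in oocyte 2 of female V1166, and the nearest of the other 3 cKO oocytes stood at 105 CPM. Rmrp stayed called without this oocyte. In RiboMinus GV controls, Rny3 stood at 38.6 CPM in oocyte 4 of female V1133, and the nearest of the other 7 oocytes stood at 19.7 CPM.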

How the results depend on the processing

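Of the 23 genotype differences tested for the 7 RNAs, 2 were called by edgeR on counts summed per female. Shares of all genes called are given beside each number, except for the ranges with females or oocytes left out. Each share is the mean over the comparisons of the tests counted, here 8.95%. The number was 4 of 23 with library totals (9.07%), 4 of 35 with no filter on low counts (9.44%), 1 of 17 with a mean of at least 50 counts (10.1%), 3 of 21 with DESeq2 (17.4%), 0 of 17 with limma voom (18.1%) and 4 of 17 with oocytes as units (33.1%). Of the 26 stage differences 1 was called (10.7%), against 2 of 26 with library totals (10.99%), 6 of 42 with no filter (9.14%), 0 of 18 with a mean of at least 50 counts (7.97%), 2 of 24 with DESeq2 (16.7%), 3 of 18 with limma voom (16.6%), 8 of 18 with oocytes as units (26.0%), 4 of 20 with only the groups compared (13.8%), and 0 to 2 with each female or oocyte left out. Of the 13 interactions of stage and genotype none was called (0.447% of all genes, and 1 of the 13 at an unadjusted p under 0.05), against 1 of 21 with no filter (1.97%). Of the 14 interactions of library type and genotype none was called (4.72% of all genes, and 2 at GV and 1 at MII at an unadjusted p under 0.05). The number was 1 of 14 with oocytes as units (10.8%) and 0 to 1 with each female or oocyte left out. In the latter the 1 was Terc at MII, called without V1167_1, V1145_3 or V1145_4. The cause of these changes was not tested. Log2 differences that were not called could change sign with 1 female or oocyte left out. They ran from -0.18 to 0.69 for Rn7sk in polyA GV and from -0.10 to 0.64 in polyA MII. In RiboMinus GV they ran from -1.34 to 0.0027 for Rn7sk, from -1.10 to 0.21 for Rny1, from -0.65 to 0.093 for Rny3 and from -0.44 to 0.39 for Vaultrc5, and in RiboMinus MII from -0.58 to 0.25 for Terc, from -1.72 to 0.17 for Vaultrc5 and from -0.024 to 0.68 for Rpph1. Between library types they ran from -0.997 to 0.22 for Rmrp at GV, and from -0.43 to 2.02 for Vaultrc5 and -1.01 to 3.27 for Rny1 at MII. Vaultrc5 in RiboMinus GV was 0.041 with library totals and 0.012 with limma voom, Rny1 between library types at MII was -1.02 with limma voom, and Rny3 in RiboMinus GV was 0.067 without the 2 oocytes of V1126. Library totals raised the median difference of all genes in RiboMinus MII from 0.25 to 0.45 and turned its split of calls from 919 higher and 938 lower to 1156 and 598; the split went from 667 and 753 to 1054 and 367 in polyA GV and from 2402 and 2447 to 3533 and 1475 in polyA GV3h, and the median of all genes between MII and GV in polyA cKO from -0.33 to -0.86. Of 41 calls of Exosc10, the partner genes picked for naming and the overlapping genes, 17 held with each female or each RiboMinus MII oocyte left out in turn. None of the 41 changed sign. No paired analysis was possible because each female gave oocytes of 1 genotype and 1 stage, and female numbers pair no samples. V1145 could not be left out, as the only female of its group. A count of 0 reads in a polyA oocyte limits what depth could show, not what the oocyte held.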
